A study of Mus musculus with 15 samples.

Results

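AM-14 B cells given PL2-3 were compared with AM-14 B cells given anti-IgM, to ask what a DNA-containing immune complex changes beyond a stimulus of the B cell receptor alone. The comparison holds 6 of the 15 arrays of the series, taken by title, 3 with PL2-3 and 3 with anti-IgM, and all genes of the values table were considered. PL2-3 is a monoclonal antibody to chromatin, and the labels call the treatment a chromatin IC (immune complex). Anti-IgM was a goat F(ab')2 fragment against mouse IgM from Jackson ImmunoResearch Laboratories. The 2 stimuli thus differ in more than DNA, in the form of the antibody and in how the receptor is bound. These differences cannot be told apart from an effect of DNA here. Arrays of cells given the CpG phosphorothioate oligo-deoxynucleotide 1826, a synthetic TLR9 ligand, and of cells kept in media, 3 of each, entered the fit and serve below as a second comparison. AM-14 mice were the source of all cells. These mice carry a transgenic B cell receptor for self IgG, and no group lacks it. The sources used here do not give the dose or time of a stimulus, the age or sex of the mice, the way the cells were purified or whether replicates came from separate cultures or animals. The p-values therefore measure the spread between arrays, which may be technical.

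The B cell receptor signals through Syk, phospholipase C, calcium and ERK, and its immediate early targets include the EGR, FOS and NR4A transcription factors. TLR9 sits in endosomes, where it binds DNA and signals through MyD88 to NF-kB and the MAP kinases. An AM-14 receptor that binds the IgG of a chromatin complex carries the attached DNA to this compartment, so that both receptors can be engaged, whereas anti-IgM engages the B cell receptor only. Type I interferons induce antiviral genes, many of which carry the interferon-stimulated response element (ISRE) in their promoters.

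Signals are probe set values on a linear scale, changes are log2 of the signal plus a pseudocount of 81, PL2-3 minus anti-IgM, with the SE from limma over 3 arrays in each group. Rose and fell are used of genes with a limma adjusted p under 0.05. Array medians were 291 to 496 with PL2-3 and 279 to 468 with anti-IgM. Replicates 1 and 2 of each group were labelled with the Enzo kit and replicate 3 with the Ambion kit, and the beta-actin controls had 5'/3' ratios of 0.335 to 0.747 on the 8 Enzo arrays of the fit, against 0.108 to 0.201 on its 4 Ambion arrays. The kit was a term of the fit for this reason. The anti-IgM+CpG arrays were not used, since both their Enzo-labelled arrays had a ratio of 0.105 to 0.193 and their Xist signals were 321 to 589, against 4250 to 15500 on the other 12 arrays. The 14 B lineage genes measured had signals from 619 for Pax5 to 37200 for Spib with PL2-3 and from 605 for Pax5 to 34100 for Fcmr with anti-IgM. Markers of other blood cells gave signals too. The 8 T cell markers had 67.7 to 960 with PL2-3 and 73.3 to 1250 with anti-IgM. The myeloid gene S100a8 had 13900 to 28500 with PL2-3 and 20800 to 36100 with anti-IgM, and the erythroid enzyme Alas2 had 17700 to 23600 with PL2-3 and 19300 to 35400 with anti-IgM. None of the 29 tested markers of T, NK, myeloid, dendritic and erythroid cells was called.

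Of 12764 genes tested, 163 (1.28%) were called, 68 higher (0.533%) and 95 lower (0.744%) with PL2-3, and 1220 had an unadjusted p under 0.05. The cytokine gene Il6 stood at the top of the risen genes, and genes of the interferon response led the falls. The median change was 1.11 among the risen and -1.25 among the fallen genes, 37 rose (0.29%) and 67 fell (0.525%) at least 2-fold, and all 163 moved the same way in each of the 3 same-numbered pairs of arrays. The 3 signals of each group did not overlap for 63 of the 68 risen and 89 of the 95 fallen genes, against 4.21% of all genes tested that lay apart and higher and 5.45% apart and lower. Pairs and overlap were read on the arrays that gave the calls, so neither is separate support for them. The count was 98 without PL2-3 replicate 1, 103 without PL2-3 replicate 2, 102 without anti-IgM replicate 1, 108 without anti-IgM replicate 2 and 255 without media replicate 3, and 38 with no labelling term. With the replicate number as a block it was 193, and 506 with that block in a fit of the 6 compared arrays alone, added after seeing the data. With arrays shifted to the same median 30.8% of the called genes were higher, in place of 41.7%, while the median change of all genes tested was -0.05 in place of 0.01.

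**Figure D1:**
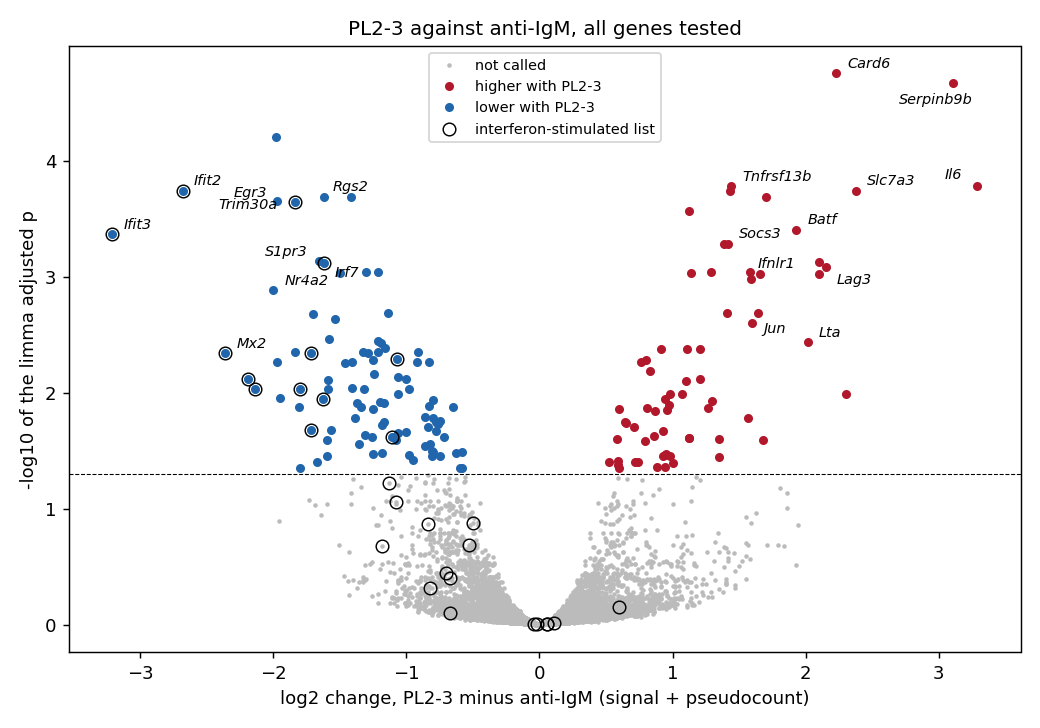
Log2 change between PL2-3 and anti-IgM (horizontal) against -log10 of the limma adjusted p (vertical) for the 12764 genes tested. Red and blue points are the 68 higher and 95 lower genes, grey points were not called, black rings mark the interferon-stimulated list and the dashed line is an adjusted p of 0.05; the ringed blue points lie at the left, down to -3.21 for Ifit3, and Il6 lies farthest to the right at 3.29.

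Among the 15 largest rises, from 1.59 to 3.29, were secreted factors, surface receptors, a transporter and transcription factors. Il6, a cytokine that B cells release after TLR engagement, had signals of 5490, 5950 and 3180 with PL2-3, against 767, 243 and 344 with anti-IgM, a change of 3.29 ± 0.33 (limma adjusted p = 0.000164). Serpinb9b, an intracellular protease inhibitor of clade B, had 13300, 14500 and 5270 with PL2-3, against 1460, 1360 and 651 with anti-IgM, a change of 3.11 ± 0.25 (limma adjusted p = 2.09e-05). In both genes the dimmest PL2-3 array, replicate 3, lay well above the brightest anti-IgM array. Slc7a3, a transporter of cationic amino acids, had 6010, 6540 and 6870 with PL2-3, against 1130, 1280 and 1130 with anti-IgM, a change of 2.38 ± 0.24 (limma adjusted p = 0.000179). Card6, a protein with a caspase recruitment domain, had 6110, 4920 and 11800 with PL2-3, against 1370, 1260 and 1780 with anti-IgM, a change of 2.23 ± 0.17 (limma adjusted p = 1.74e-05). The Card6 difference went with a low level after anti-IgM: the gene had 6240, 5470 and 7910 in media, near its level with PL2-3. Hsd11b1, Ebi3 and Fcrl1, named below, were also not called in PL2-3 against media (1.04, 0.37 and -0.01, limma adjusted p = 0.0693, 0.221 and 0.979). In anti-IgM against media these genes changed by -1.25, -0.61 and -1.22 (limma adjusted p = 0.0382, 0.0503 and 0.000603). Lag3, an inhibitory receptor for MHC class II, had 3370, 3140 and 3840 with PL2-3, against 1060, 801 and 413 with anti-IgM, a change of 2.15 ± 0.28 (limma adjusted p = 0.000821). Ifnlr1, the specific chain of the interferon lambda receptor, had 1830, 2840 and 1320 with PL2-3, against 321, 508 and 338 with anti-IgM, a change of 2.10 ± 0.28 (limma adjusted p = 0.000932). The groups did not overlap in either.

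**Figure D2:**
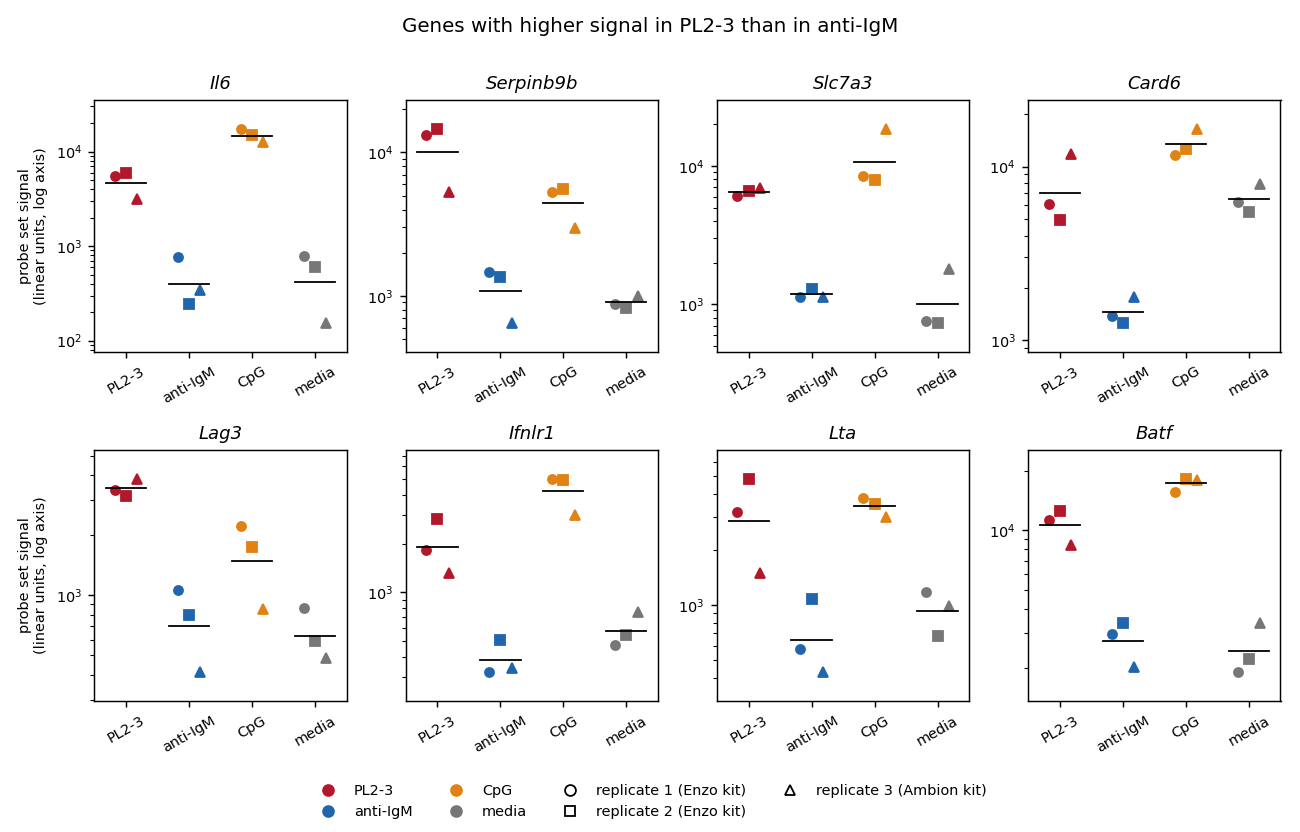
Probe set signals (linear units on a log axis) on each of the 12 arrays for 8 of the 15 largest rises, with PL2-3, anti-IgM, CpG and media from left to right. Point shape gives the replicate and kit and the bar the geometric mean of 3 arrays; in all 8 genes each PL2-3 point lies above each anti-IgM point.

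The transcription factor genes Batf and Jun, both of the AP-1 group, rose. Batf, which B cells need for class switching, had 11300, 12600 and 8400 with PL2-3, against 2980, 3380 and 2030 with anti-IgM, a change of 1.93 ± 0.23 (limma adjusted p = 0.000389). Jun had 6750, 4790 and 7210 with PL2-3, against 1770, 3180 and 1340 with anti-IgM, a change of 1.60 ± 0.24 (limma adjusted p = 0.00246). All PL2-3 signals of both genes exceeded all anti-IgM signals. The rest of the 15 were Hsd11b1 (2.30 ± 0.42), which regenerates active glucocorticoid, the small GTPase Rab34 (2.10 ± 0.26), Lta (2.02 ± 0.31), Rhbdl3 (1.68 ± 0.35) of the rhomboid family, the B cell protein Niban3 (1.66 ± 0.22), the endothelial lipase gene Lipg (1.64 ± 0.24) and the pseudokinase gene Prag1 (1.59 ± 0.21). Of these 15 genes, 13 kept their call when any of the 12 arrays was left out. Hsd11b1 lost it without PL2-3 replicate 1, anti-IgM replicate 1 or anti-IgM replicate 3 (adjusted p up to 0.0682), and Rhbdl3 without any PL2-3 array or anti-IgM replicate 1 or 3 (up to 0.146). With probe sets averaged by gene, Lipg (0.81) and Prag1 (0.74) were not called (adjusted p = 0.355 and 0.0628).

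The cytokine list had a median change of 0.20 beside 0.01 for all genes tested. Of its 26 tested genes 3 rose, beside 0.533% of all genes, and 0 fell. Besides Il6 these were Lta, which encodes lymphotoxin alpha, and Ebi3, a subunit of interleukin 27. Lta had 3210, 4860 and 1500 with PL2-3, against 578, 1070 and 432 with anti-IgM, a change of 2.02 ± 0.31 (limma adjusted p = 0.00365). Ebi3 had 2050, 2550 and 1750 with PL2-3, against 1270, 910 and 908 with anti-IgM, a smaller change of 0.98 ± 0.22 (limma adjusted p = 0.0353). The groups did not overlap in these genes, but the Ebi3 call was lost without either of PL2-3 replicates 1 and 2, anti-IgM replicates 2 and 3, CpG replicate 1 or media replicate 1 (adjusted p up to 0.201). Members just short of the threshold, chosen after their values were seen, were Il12b, a subunit of interleukin 12 (1.15 ± 0.28, limma adjusted p = 0.0643), and Il2, the T cell growth factor (1.81 ± 0.44, limma adjusted p = 0.0654). Ifng, interferon gamma, had 4080, 3620 and 34.6 with PL2-3, against 394, 273 and 109 with anti-IgM (1.93 ± 0.70, limma adjusted p = 0.308). It was bright on the 2 Enzo arrays of PL2-3 and under the pseudocount on the Ambion array. Of 14 chemokine genes, beside 0.744% of all genes called lower, 0 rose and 1 fell. That was Cxcl2, a neutrophil attractant, with 1510, 2310 and 2290 with PL2-3, against 3930, 5970 and 7720 with anti-IgM (-1.46 ± 0.24, limma adjusted p = 0.00548), which do not overlap. With no labelling term the adjusted p was 0.0859 for Cxcl2 and 0.0543 for Lta, and with all 15 arrays it was 0.212 for Cxcl2. Ccl3 and Ccl4, bright macrophage inflammatory protein genes, averaged 79900 ± 28500 and 93000 ± 19500 with PL2-3 and 44100 ± 9120 and 58200 ± 14400 with anti-IgM (SD, n = 3 each), and neither was called (limma adjusted p = 0.296 and 0.302).

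The 15 largest falls, from -3.21 to -1.72, were led by interferon-stimulated genes. Ifit3, which encodes an antiviral tetratricopeptide protein, had 39.3, 216 and 440 with PL2-3, against 3240, 1870 and 2200 with anti-IgM, a change of -3.21 ± 0.38 (limma adjusted p = 0.000426). Its relative Ifit2 had 268, 250 and 151 with PL2-3, against 2620, 2230 and 1060 with anti-IgM, a change of -2.68 ± 0.28 (limma adjusted p = 0.000179). Mx2, an antiviral GTPase, had 60.9, 48.7 and 70.7 with PL2-3, against 946, 639 and 431 with anti-IgM, a change of -2.36 ± 0.38 (limma adjusted p = 0.00453). All 3 PL2-3 signals of Mx2 lay under the pseudocount, so that its change is understated on this scale, and none of these genes overlapped between the groups. Ifit1, of the same family, had 986, 1100 and 473 with PL2-3, against 5040, 4180 and 2940 with anti-IgM, a change of -2.19 ± 0.38 (limma adjusted p = 0.00758). Usp18, a feedback inhibitor of the interferon receptor, had 1670, 1370 and 490 with PL2-3, against 7000, 4510 and 3740 with anti-IgM, a change of -2.14 ± 0.38 (limma adjusted p = 0.00924). Trim30a, a tripartite motif protein, had 5500, 4270 and 2750 with PL2-3, against 18500, 13600 and 12200 with anti-IgM, a change of -1.84 ± 0.20 (limma adjusted p = 0.000223). The groups were again apart on every array. Irf7, the transcription factor that drives type I interferon genes after TLR9 engagement, had 2240, 2180 and 1280 with PL2-3, against 7360, 5210 and 5210 with anti-IgM, a change of -1.62 ± 0.21 (limma adjusted p = 0.000751).

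Of the 29 tested genes of the interferon-stimulated list, 13 fell, 0 rose and 16 were not called, with a median change of -1.08 beside 0.01 for all genes tested and 0.744% of all genes called lower. The other members that fell, all named here to complete the count, were Mx1 (-1.80 ± 0.32), the oligoadenylate synthetase Oas1a (-1.72 ± 0.27), Rsad2 (-1.72 ± 0.35), which encodes viperin, Ifi27l2a (-1.63 ± 0.30), Parp14 (-1.11 ± 0.23) and Ifi35 (-1.07 ± 0.18). Members that were not called, picked here after their values were seen, included the GTPases Gbp2 (0.11 ± 0.42), Gbp3 (0.06 ± 0.30), Igtp (0.06 ± 0.33), Irgm1 (-0.02 ± 0.28) and Iigp1 (0.60 ± 0.38), known as targets of interferon gamma. Others not called were lower, among them Isg20 (-1.13 ± 0.27), Oasl1 (-0.84 ± 0.24), Oas3 (-0.82 ± 0.37) and Oas2 (-0.70 ± 0.27). Whether members divide by type of interferon was not tested. Bst2, the restriction factor tetherin, missed the threshold at -1.08 ± 0.28 (limma adjusted p = 0.0864) and passed it with the replicate number as a block (0.00972), without anti-IgM replicate 2 (0.0165) and without media replicate 3 (0.0419). Ifnb1, interferon beta, had 432, 987 and 284 with PL2-3, against 590, 737 and 257 with anti-IgM (limma adjusted p = 0.99). Of the 15 largest falls, Slfn1 (-1.97 ± 0.33), Slfn4 (-1.95 ± 0.36), Rtp4 (-1.84 ± 0.29) and Ifi44l (-1.81 ± 0.34) lie outside the list and are known as interferon-inducible. With probe sets averaged by gene, Slfn1 (-0.78) and Rtp4 (-1.29) were not called (adjusted p = 0.402 and 0.0518), and with the Enzo arrays only Slfn1, Rtp4 and Ifi44l were not (0.0507, 0.0531 and 0.0613). With no labelling term the adjusted p was 0.0579 for Slfn4, 0.0543 for Rtp4 and 0.0772 for Ifi44l, and with all 15 arrays it was 0.276 for Slfn4 and 0.0512 for Ifi44l. The count of 13 was 7 without anti-IgM replicate 1, 7 with no labelling term, 8 with all 15 arrays in the fit and 5 without the intensity trend. Without anti-IgM replicate 1 the genes Ifit1, Usp18, Mx1, Rsad2 and Ifi44l lost their call (adjusted p up to 0.135 over all arrays left out). So did Ifit1 and Usp18 without PL2-3 replicate 3, Mx1 without PL2-3 replicate 1, Ifi44l without PL2-3 replicate 2 and Rsad2 without PL2-3 replicate 2 or 3 or anti-IgM replicate 2. Slfn4 lost its call without PL2-3 replicate 1 or 3 or anti-IgM replicate 2 (up to 0.0735), while Ifit3, Ifit2, Mx2, Trim30a and Irf7 kept it whichever array was left out.

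**Figure D3:**
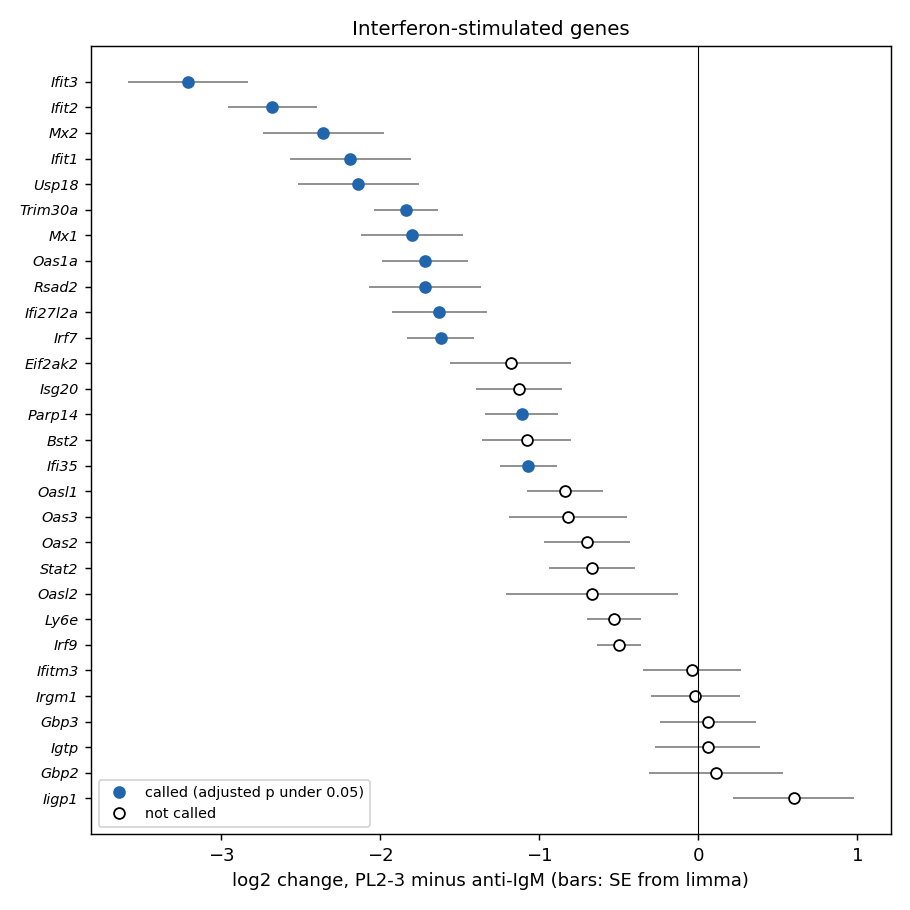
Log2 change between PL2-3 and anti-IgM for the 29 tested genes of the interferon-stimulated list, ordered by size, with the SE from limma as bars. The 13 filled points were called and all lie left of 0, from -3.21 to -1.07, and the 16 open points were not called.

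The dendritic cell marker list, which includes Bst2, had summed signals of 11600, 9610 and 7540 with PL2-3, against 16100, 11100 and 12400 with anti-IgM, and the myeloid markers summed to 49600, 80800 and 58700 with PL2-3, against 55300, 95800 and 69400 with anti-IgM. T cell markers summed to 3960, 4520 and 2890 with PL2-3, against 5470, 5160 and 3620 with anti-IgM. These sums were lower with PL2-3 in all 3 same-numbered pairs, as were those of the erythroid markers and of the B lineage genes, which summed to 131000, 120000 and 198000 with PL2-3, against 169000, 160000 and 217000 with anti-IgM. NK cell markers summed to 5780, 4890 and 2730 with PL2-3, against 5200, 3480 and 2150 with anti-IgM, and were higher in all 3 pairs. Bst2 alone had 3570, 2320 and 2950 with PL2-3, against 7840, 3970 and 7790 with anti-IgM. Most of the gap in the dendritic sum thus lay in this 1 gene, so that sum says little about the other dendritic markers. The part of these sums in the interferon result was not tested. In total RNA of a culture, fewer cells of a type and less RNA per cell cannot be told apart. None of the 5 tested dendritic and 0 of 9 myeloid markers was called, at median changes of -0.18 and -0.31. Siglech, of plasmacytoid dendritic cells, had 69.7 to 811 with PL2-3 and 354 to 1030 with anti-IgM.

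The promoters of 3 fallen interferon-stimulated genes are shown because they hold the letters of the ISRE, and those of Il6 and Cxcl2 because they hold kB letters and moved opposite ways. Sequences are from RefSeq on GRCm38.p6, 250 bases before to 50 after the start of the gene, on the gene's strand. Ifit3 (chr19:34583279-34583578, plus strand) and Ifit1 (chr19:34640639-34640938, plus strand) each hold GAAANNGAA at 3 places, and Oas1a (chr5:120907476-120907775, minus strand) holds it at 2. The 2 places overlap in Oas1a, as do 2 of the 3 in Ifit1. Capitals mark these letters on either strand and, in Ifit3, an AP-1 match.
Ifit3: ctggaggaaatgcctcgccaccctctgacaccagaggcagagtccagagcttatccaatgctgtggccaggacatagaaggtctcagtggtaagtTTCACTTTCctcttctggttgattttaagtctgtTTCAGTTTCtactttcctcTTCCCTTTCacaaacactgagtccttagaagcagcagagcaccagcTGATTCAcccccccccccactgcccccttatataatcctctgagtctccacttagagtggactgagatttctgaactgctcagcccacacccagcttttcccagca
Ifit1: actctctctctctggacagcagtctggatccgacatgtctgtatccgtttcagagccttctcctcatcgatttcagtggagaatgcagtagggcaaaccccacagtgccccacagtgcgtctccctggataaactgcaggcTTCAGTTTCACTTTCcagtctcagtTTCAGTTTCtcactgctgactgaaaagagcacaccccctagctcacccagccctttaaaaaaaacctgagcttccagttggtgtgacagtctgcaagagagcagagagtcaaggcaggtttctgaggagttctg
Oas1a: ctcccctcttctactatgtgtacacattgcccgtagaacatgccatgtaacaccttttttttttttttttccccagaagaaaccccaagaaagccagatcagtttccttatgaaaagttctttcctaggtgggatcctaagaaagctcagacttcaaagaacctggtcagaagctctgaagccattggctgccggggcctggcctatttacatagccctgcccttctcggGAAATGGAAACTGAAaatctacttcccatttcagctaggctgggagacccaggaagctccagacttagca
GAAANNGAA was searched on both strands. It was present in 5 of the 8 fallen list genes with a promoter entry (62.5%). Of the list genes not called lower, 9 of 13 held it. GAAANNGAA was held by 8.51% of the 10315 tested genes with an entry and by 9.76% of all 27025 genes with an entry. Among all risen genes with an entry, 6 of 56 (10.7%) held it.

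Il6 (chr5:30012864-30013163, plus strand) holds GGGNNTTTC, from the NF-kB (kB) motif, once and TGANTCA, an AP-1 motif, once. Cxcl2 (chr5:90903649-90903948, plus strand) holds GGGNNTTTC at 2 places, and capitals mark all of these.
Il6: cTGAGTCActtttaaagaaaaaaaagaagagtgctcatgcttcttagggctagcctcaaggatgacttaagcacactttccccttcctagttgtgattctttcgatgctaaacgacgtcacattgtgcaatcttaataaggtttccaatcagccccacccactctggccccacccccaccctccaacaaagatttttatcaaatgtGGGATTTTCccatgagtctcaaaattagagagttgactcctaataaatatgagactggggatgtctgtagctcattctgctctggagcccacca
Cxcl2: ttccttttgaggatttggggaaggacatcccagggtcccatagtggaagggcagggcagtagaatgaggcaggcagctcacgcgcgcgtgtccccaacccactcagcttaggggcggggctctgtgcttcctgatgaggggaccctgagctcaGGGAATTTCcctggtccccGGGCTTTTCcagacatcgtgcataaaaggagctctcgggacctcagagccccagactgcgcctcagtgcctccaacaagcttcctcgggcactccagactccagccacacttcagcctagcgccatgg
GGGNNTTTC on either strand was present in 6 of 56 risen genes (10.7%) and 7 of 80 fallen genes (8.75%). Of genes with an entry, 5.13% of those tested and 5.06% of all held it. TGANTCA, which reads the same on both strands, was present in 9 of 56 risen genes (16.1%) and 11 of 80 fallen genes (13.8%). It was held by 6.81% of tested genes and 8.97% of all. The other motifs searched were the CRE (TGACGTCA), EGR (GCGTGGGCG) and E-box (CACGTG) letters. They were held by 0, 0 and 6 of 56 risen and 3, 1 and 13 of 80 fallen genes. Among tested genes the shares were 3.31%, 1.37% and 11.3%, and among all genes 2.03%, 0.707% and 8.09%. Of 32851 promoter windows, 41 had overlapping matches to different motifs of the 6 searched.

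Of 24 nucleic acid sensing genes tested, 0 rose and 3 fell, beside 0.744% of all genes called lower, with a median change of -0.25. The RNA sensor gene Ddx58 was listed under a newer symbol that found no match and is not counted. Looked up after the other values were seen, it fell too (-1.32 ± 0.23, limma adjusted p = 0.00924). Besides Irf7 these were Dhx58, which encodes the cytosolic RNA sensor relative LGP2 (-1.60 ± 0.33, limma adjusted p = 0.0256), and Irak3, an inhibitory kinase of the TLR pathway (-1.18 ± 0.26, limma adjusted p = 0.0331). A second probe set gave 0.19 for Dhx58 and 0.35 for Irak3, and leaving out PL2-3 replicate 2 or 3 or anti-IgM replicate 1 or 2 ended both calls, as did anti-IgM replicate 3 for Dhx58 and media replicate 1 for Irak3 (adjusted p up to 0.142 and 0.171). Tlr9 itself had 396, 999 and 298 with PL2-3, against 893, 1090 and 212 with anti-IgM (-0.26 ± 0.41, limma adjusted p = 0.916), and Myd88 averaged 2620 ± 424 with PL2-3 and 3120 ± 310 with anti-IgM (SD, n = 3 each). Of 11 other Toll-like receptor genes, 0 were called.

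Some immediate early genes were lower with PL2-3. Of 25 tested genes, 5 fell, 1 rose (Jun) and 19 were not called, with a median change of -0.24. Of all genes tested, 0.744% fell and 0.533% rose. Nr4a2, an orphan nuclear receptor, had 2000, 1880 and 2090 with PL2-3, against 9120, 9780 and 6180 with anti-IgM, a change of -2.0 ± 0.28 (limma adjusted p = 0.0013). Egr3, a zinc finger transcription factor, had 3530, 6130 and 2940 with PL2-3, against 17800, 16800 and 13400 with anti-IgM, a change of -1.97 ± 0.22 (limma adjusted p = 0.000219). Fosl2, an AP-1 subunit, had 7070, 6250 and 4560 with PL2-3, against 15400, 15900 and 10500 with anti-IgM, a change of -1.21 ± 0.19 (limma adjusted p = 0.00353). The groups did not overlap in these genes, although a second Egr3 probe set gave 0.48 and the other probe sets of Nr4a2 gave -1.78 to -0.19. With probe sets averaged by gene the adjusted p was 0.477 for Egr3 and 0.145 for Fosl2, and with no labelling term it was 0.0656 for Nr4a2 and 0.438 for Fosl2. The antiproliferative gene Btg2 (-0.65 ± 0.12, limma adjusted p = 0.0131) and the phosphatase gene Dusp2 (-0.58 ± 0.12, limma adjusted p = 0.0325, named after its value was seen) fell by less. Btg2 lost its call without PL2-3 replicate 2 or anti-IgM replicate 2 or 3 (up to 0.0746). Against media, Nr4a2 and Fosl2 changed by 2.23 and 1.51 with anti-IgM. With PL2-3 they changed by 0.23 and 0.30 (limma adjusted p = 0.584 and 0.25). Egr3 changed by 0.90 with anti-IgM and by -1.07 with PL2-3. Btg2 was lower than in media with both, at -1.14 with anti-IgM and -1.79 with PL2-3.

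Other immediate early genes, again picked after their values were seen, differed by less than their spread. Egr2 had 23700, 22700 and 26500 with PL2-3, against 25300, 24500 and 32200 with anti-IgM (-0.16 ± 0.21, limma adjusted p = 0.894). Myc had 33800, 42800 and 17400 with PL2-3, against 32700, 39400 and 21800 with anti-IgM (-0.05 ± 0.18, limma adjusted p = 0.968). Nr4a3 and Fosl1 changed by 0.06 ± 0.34 and -0.09 ± 0.24 (limma adjusted p = 0.978 and 0.955). Egr2, Myc, Nr4a3 and Fosl1 were higher on every PL2-3 and every anti-IgM array than on any media array. Egr1 missed the threshold at -0.59 ± 0.15 (limma adjusted p = 0.0863). The count of 5 was 3 without anti-IgM replicate 3 and 1 with no labelling term, and none of 14 ERK feedback genes was called (median -0.41).

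**Figure D4:**
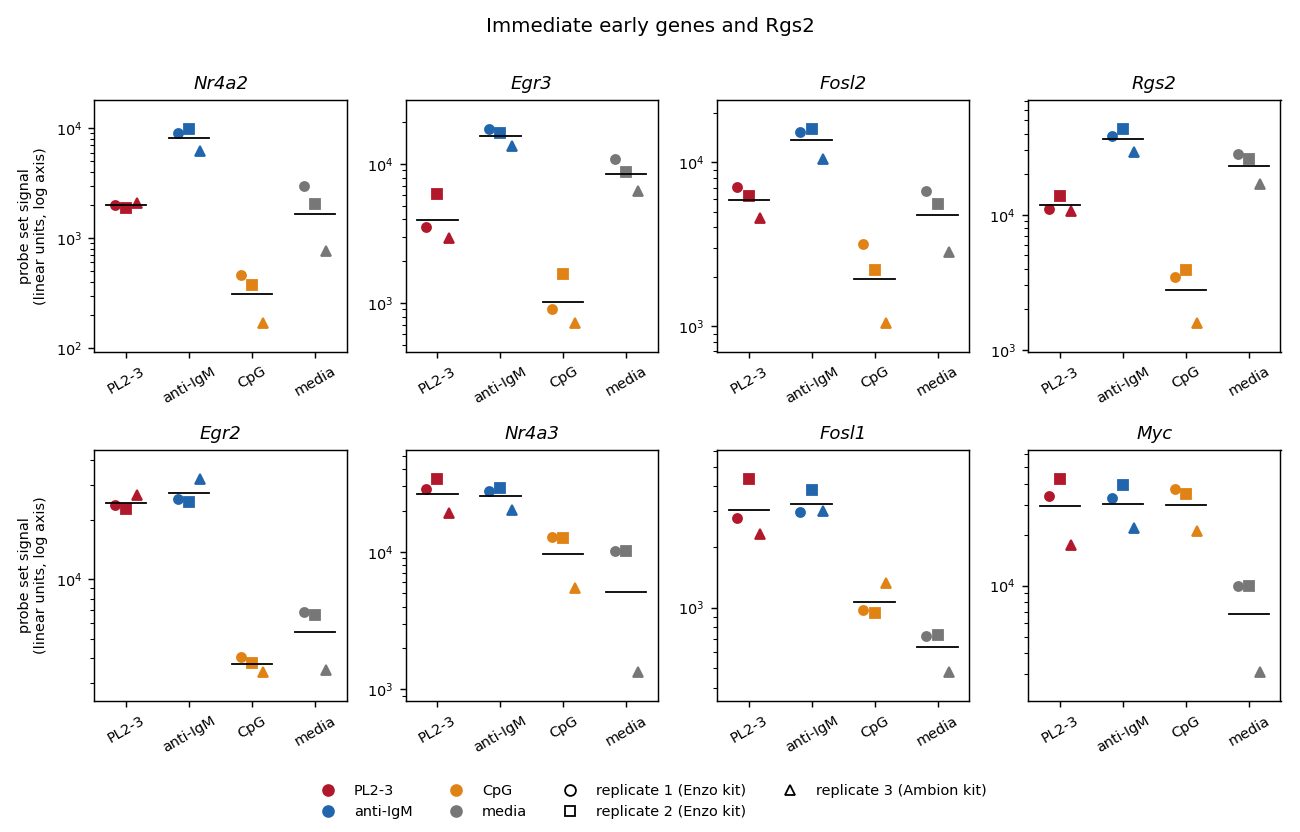
Probe set signals (linear units on a log axis) on each of the 12 arrays for 7 immediate early genes and Rgs2, with PL2-3, anti-IgM, CpG and media from left to right. Point shape gives the replicate and kit and the bar the geometric mean of 3 arrays; the top row holds genes lower with PL2-3 than with anti-IgM, with CpG lower still, and the bottom row holds genes whose PL2-3 and anti-IgM points lie together.

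Rgs2, which shortens signals of G protein-coupled receptors, had 11100, 13800 and 10700 with PL2-3, against 38500, 43000 and 29300 with anti-IgM, a change of -1.62 ± 0.18 (limma adjusted p = 0.000201). S1pr3, a receptor for sphingosine phosphate found on marginal zone B cells, had 2720, 3530 and 3850 with PL2-3, against 10200, 11500 and 10500 with anti-IgM, a change of -1.66 ± 0.21 (limma adjusted p = 0.000731). No array of one group reached the range of the other in these genes, and S1pr3 was not called with its probe sets averaged (-0.91, adjusted p = 0.249). Rgs13 had 979, 1370 and 1080 with PL2-3, against 3910, 6710 and 2710 with anti-IgM (-1.80 ± 0.41, limma adjusted p = 0.0441), and its call was lost in the 9 of 12 fits that left out an array other than anti-IgM replicate 3 and media replicates 2 and 3 (adjusted p up to 0.229). Gpr183, an oxysterol receptor that guides B cells in follicles, changed by -0.81 ± 0.18 (limma adjusted p = 0.0352), a call lost without PL2-3 replicate 1 or 2, any anti-IgM array or media replicate 1 (adjusted p up to 0.197). Rgs2, Rgs13 and Gpr183 were the 3 of 19 positioning and adhesion genes that fell, beside 0.744% of all genes, and 0 rose. Of 11 marginal zone genes S1pr3 fell and the plexin gene Plxnd1 rose, beside 0.744% and 0.533% of all genes.

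Among receptor signalling genes, 2 members of each of 4 lists were called, beside 1.28% of all genes tested. Cd81, a tetraspanin, had 20300, 22700 and 19100 with PL2-3, against 8810, 9370 and 9760 with anti-IgM, a change of 1.14 ± 0.15 (limma adjusted p = 0.000917). Of 21 tested BCR signalling genes it was the 1 that rose, and Pik3ap1, the adaptor BCAP, was the 1 that fell (-0.58 ± 0.13, limma adjusted p = 0.0441, lost in the 9 of 12 fits that left out an array other than anti-IgM replicate 1 and media replicates 2 and 3, up to 0.273). The calcium list had 2 falls of 18 tested, Nfatc1 (-0.75 ± 0.15), a transcription factor switched on by calcineurin, and the calcium channel gene Itpr3 (-0.75 ± 0.16). Nfatc1 had 6550, 8500 and 6600 with PL2-3, against 11700, 12600 and 12000 with anti-IgM. Nfatc1 lost its call without PL2-3 replicate 1 or 3 or anti-IgM replicate 2 or 3 (up to 0.135). Itpr3 lost it without any of the 6 compared arrays, CpG replicate 1 or media replicate 1 (up to 0.197). Inpp5d, which encodes the inositol phosphatase SHIP, fell by 0.83 ± 0.16 log2 units (lost without PL2-3 replicate 2 or any anti-IgM array, up to 0.0746), and the inhibitory receptor gene Btla rose by 0.80 ± 0.13 (not called with arrays shifted to the same median, 0.0809, with no labelling term, 0.0616, or without the trend, 0.0602). The 2 Fc receptor list genes moved opposite ways: Fcmr, the receptor for IgM, by -1.41 ± 0.25 (0.0558 without anti-IgM replicate 3), and Fcrl1, an Fc receptor-like coreceptor, by 1.21 ± 0.21 (0.0523 without anti-IgM replicate 1). Of 18 genes tested for inhibitory receptors and phosphatases 1 rose and 1 fell, as did 1 and 1 of 10 Fc receptor genes.

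Tnfrsf13b, which encodes the BAFF and APRIL receptor TACI, had 13800, 15400 and 18400 with PL2-3, against 4340, 5210 and 8450 with anti-IgM, a change of 1.44 ± 0.14 (limma adjusted p = 0.000164). Plxnd1 had 6650, 6650 and 3930 with PL2-3, against 2290, 2390 and 1510 with anti-IgM, a change of 1.43 ± 0.15 (limma adjusted p = 0.000179). Socs3, a feedback inhibitor of cytokine receptors, had 4680, 6160 and 2320 with PL2-3, against 1600, 1760 and 1120 with anti-IgM, a change of 1.42 ± 0.17 (limma adjusted p = 0.000513). Each of these genes was higher on every PL2-3 array than on any anti-IgM array, and kept its call whichever array was left out. With no labelling term Socs3 and Plxnd1 were not called (adjusted p = 0.117 and 0.0579). Nfkbiz, a nuclear IkB protein that Il6 transcription is known to use, had 26400, 43800 and 15500 with PL2-3, against 12700, 12800 and 8800 with anti-IgM (1.21 ± 0.19, limma adjusted p = 0.00416), a call lost with no labelling term (0.233) and without the intensity trend (0.0587). It was the 1 called gene of 22 NF-kB subunits and targets, beside 1.28% of all genes called. That list had a median change of 0.16. Bcl2l11, which encodes the death protein BIM, had 39500, 26700 and 8200 with PL2-3, against 66100, 54900 and 16300 with anti-IgM (-0.92 ± 0.15, limma adjusted p = 0.00539). The ranges overlapped, with replicate 3 dim in both groups, and the PL2-3 array was the lower of each pair. The call ended with the Enzo arrays only (adjusted p = 0.0507), without the intensity trend (0.0732), with all 15 arrays (0.564) and with no labelling term (1). Irf8 (0.94 ± 0.20), a B cell transcription factor, Bcat1 (0.93 ± 0.19), a branched-chain amino acid transaminase, and the cell cycle inhibitor Rb1 (-0.86 ± 0.17) were called. Irf8 lost the call without any PL2-3 array, anti-IgM replicate 1 or 2, CpG replicate 1 or media replicate 1 (adjusted p up to 0.174). Bcat1 lost it without PL2-3 replicate 1 or 2 or anti-IgM replicate 2 or 3 (up to 0.135), and Rb1 without PL2-3 replicate 1 or 2 or anti-IgM replicate 1 or 2 (up to 0.0991). By list, 1 of 18 BAFF receptor and survival genes rose and 1 fell. In other lists 1 of 18 STAT, JAK and SOCS genes, 2 of 16 class switching genes and 1 of 24 amino acid genes rose. Falls were 1 of 27 quiescence genes, 1 of 17 G1 genes and 1 of 14 B lineage genes. Over all genes tested 0.533% rose and 0.744% fell, so a single call is not read as a result about its list.

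The programs of growth and antigen presentation gave no calls. None of the tested genes of ribosome biogenesis (25), glycolysis (18), cholesterol synthesis (18), the unfolded protein response (21), heat shock (16), DNA replication (24), mitosis (20), MHC class II (14), lysosomes (24), plasma cell differentiation (13) or activation surface molecules (23) was called, and their median changes lay between -0.19 and 0.22. Ncl, nucleolin, averaged 82700 ± 12300 with PL2-3 and 85900 ± 9160 with anti-IgM (SD, n = 3 each), and Cd83 averaged 49000 ± 3570 with PL2-3 and 51800 ± 1880 with anti-IgM (SD, n = 3 each). In the same fit, 24 of the 25 ribosome biogenesis genes rose with PL2-3 against media (median 1.39, with 14.6% of all genes called higher) and 24 with anti-IgM against media (median 1.18, with 12.4%), 2 comparisons that share their media arrays. A missing call does not show that 2 levels are alike: the SE of Ncl was 0.15 and that of Cd83 0.23 log2 units.

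The genes that distinguished the complex from anti-IgM were set against the response to the TLR9 ligand, CpG against media, which shares no array with them. In that comparison 4608 genes were called (36.1% of all tested), of which 1947 rose (15.3%) and 2661 fell (20.8%). Of the 68 genes higher with PL2-3, 58 (85.3%) also rose with CpG and 1 fell. Il6 had 17200, 15000 and 12500 with CpG, against 794, 608 and 155 in media, a change of 4.83 ± 0.33 (limma adjusted p = 2.07e-07). Jun had 31000, 34500 and 30800 with CpG, against 2930, 3600 and 2830 in media, a change of 3.33 (limma adjusted p = 2.54e-07). Lag3 had 3140 to 3840 with PL2-3 and 858 to 2220 with CpG, while Slc7a3 and Batf were brighter on every CpG array than on any PL2-3 array. The 58 genes were 2.98% of the 1947.

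Of the 95 fallen genes, 47 (49.5%) also fell with CpG, beside 20.8% of all genes tested. Another 20 (21.1%) rose with CpG, a share nearer the 15.3% of all genes tested. The share that also fell was 31.3% with arrays shifted to the same median, 37.3% at 2-fold or more and 70.5% with the Enzo arrays only. Genes that also fell included Nr4a2, Egr3, Fosl2, Rgs2 and S1pr3: Rgs2 had 3490, 3910 and 1590 with CpG, against 28200, 25700 and 16800 in media, a change of -3.01 (limma adjusted p = 6.34e-08). Genes that rose with CpG included 10 of the 13 fallen interferon-stimulated genes, and 0 of the 13 fell with CpG: Mx2 had 3400, 1540 and 2080 with CpG, against 93.3, 166 and 79.3 in media, a change of 3.60 (limma adjusted p = 6.52e-06). Mx2 was thus raised on all arrays with CpG and with anti-IgM and had 48.7 to 70.7 with PL2-3, against 79.3 to 166 in media. Ifit3 had 39.3 to 440 with PL2-3, against 1070 to 1790 in media, and Trim30a had 2750 to 5500 with PL2-3, against 6880 to 9720 in media. For Ifit3 and Trim30a the PL2-3 against media changes were -2.40 and -1.03 (limma adjusted p = 0.000229 and 0.00118), and for Mx2 -0.43 (0.434). Over the 29 tested genes of the interferon-stimulated list the median change against media was -0.63 with PL2-3 and 0.58 with anti-IgM. Both medians rest on the same media arrays. Across the 12764 genes the changes in PL2-3 against anti-IgM and in CpG against media had a Pearson correlation of 0.30, a description over genes that share arrays, probe chemistry and kits within a comparison. With each comparison fitted on its own 6 arrays, 63 of 81 risen genes (77.8%) rose and 87 of 146 fallen genes (59.6%) fell with CpG. Of those 146 fallen genes 24 (16.4%) rose. In these fits 17% of all genes rose and 21.4% fell with CpG.

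**Figure D5:**
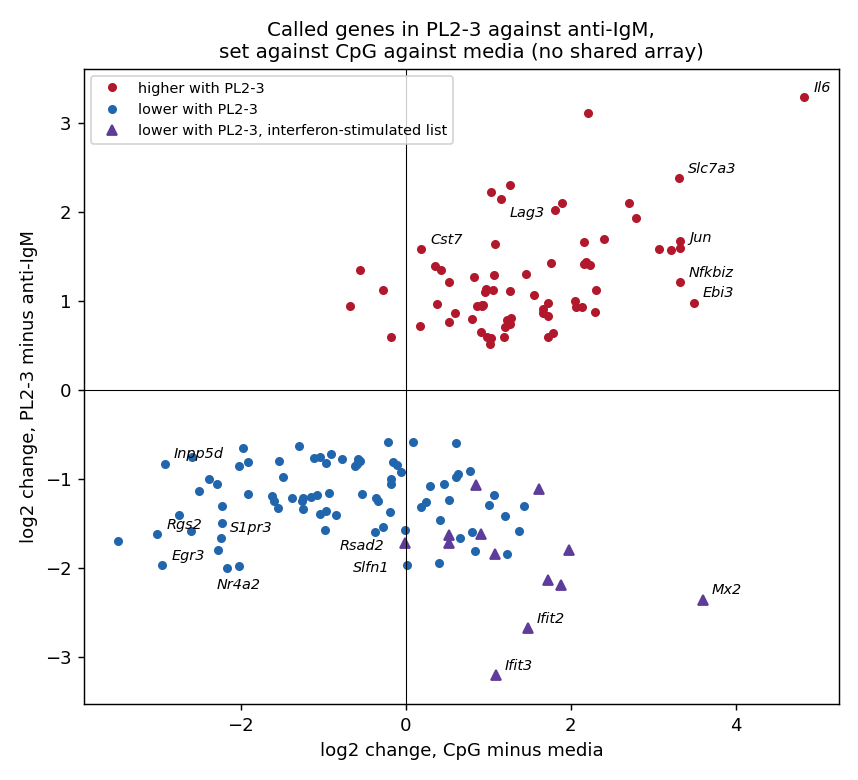
Log2 change in CpG against media (horizontal) and in PL2-3 against anti-IgM (vertical) for the 163 called genes. Red points, higher with PL2-3, lie mostly to the right of 0, where 58 of 68 were called, blue points lie on both sides, and the purple triangles, the 13 fallen genes of the interferon-stimulated list, lie between -0.01 and 3.60, with Mx2 farthest to the right.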

How the data were processed

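RNA of AM-14 B cells was measured on Affymetrix mouse arrays, 1 per sample, after extraction with Qiagen RNeasy columns and biotin labelling, per the labels. The deposited values are probe set intensities on a linear scale, from MAS5 per the submitters' processing notes, with version and target not given; a gene's signal also depends on its probes, so levels are not compared between genes. Of 45037 probe sets besides 64 controls, 34945 had 1 gene symbol, 932 several and 9160 none, and 34741 matched the RefSeq gene table. For each of 18193 genes the probe set of highest mean stood for the gene, and 12764 that reached the array median on 3 or more of 12 arrays were tested.

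A pseudocount of 81 (the 20th percentile of signals) was added before log2, and the values were fitted with limma 3.58.1 (R 4.3.3) lmFit and eBayes with an intensity trend, over the 12 arrays of 4 groups with the labelling kit as a term, leaving 7 residual degrees of freedom. P-values are two-sided and Benjamini-Hochberg adjusted over all genes tested, with calls under 0.05. Arrays, not depth, limit the precision: with 3 per group an exact permutation test cannot go below 0.1. The Ambion kit has 1 array per group and allows no test within it. The procedure was tested on data simulated with independent normal noise. It called 50 of 93 2-fold changes (53.8%) and 94 of 107 4-fold changes (87.9%), with 11 false calls. Many changes of 2-fold can thus go uncalled. Figures used Python 3.11.15 and matplotlib 3.10.9.

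The comparison and 37 gene lists (619 of 689 genes tested) were chosen with earlier results of these data known. Named genes were the 15 largest rises and falls among called genes that moved the same way in 3 of 3 pairs, whose other probe sets did not oppose them and whose higher mean was at least 4 times the pseudocount. Provisional symbols and antigen receptor segments were passed over. Up to 4 called members of each list, or the brightest where none was called, were added, and exceptions are marked. Not every gene the rule allows is printed.

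Replicate numbers were checked on deviations from group means. All 18 same-numbered pairs correlated above 0.1 (0.133 to 0.703), against 9 of 36 others, which were all pairs of Enzo arrays. This contrast is largely one of kits: same-numbered arrays share a kit, and pairs from different kits all correlated negatively (-0.598 to -0.163). The 3 pairs of PL2-3 and anti-IgM had 0.249 to 0.703. Their Enzo arrays had 0.249 and 0.565 with equal numbers, against 0.189 and 0.201 with unequal numbers. Media replicate 2 had 0.179 to 0.227 with replicates 2 and 0.183 to 0.251 with replicates 1. That the numbers pair the arrays was therefore an assumption. The alternatives were quantile or median scaling, no or a higher pseudocount (263), no or a stricter filter, no kit term, a replicate block, Enzo arrays only, no trend, other samples in the fit, averaged probe sets, a minimum of 2-fold and each array left out in turn.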

Additional observations from a re-analysis of the deposited data

How the results depend on the processing

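The count of 163 genes called in PL2-3 against anti-IgM stayed within 1.5 times under quantile normalization (172), the same median (120), other pseudocounts, other filters, the Enzo arrays only (115), the compared groups only (229) and the replicate block (193, of which 74 were higher and 119 lower). It was 38 with no labelling term, 54 without the intensity trend, 91 with all 15 arrays, 96 with probe sets averaged by gene and 104 at 2-fold or more. It ran from 98 to 255 when 1 array was left out. A replicate block in a fit of the compared groups only, added after seeing the data, gave 506 (180 higher, 326 lower). Higher genes made up 52.6% of the calls with no labelling term and 30.8% with the same median, against 41.7%. CpG against media gave 4608 calls, 2953 with no labelling term, 2149 at 2-fold or more and 3475 to 4672 with 1 array left out. The share of risen genes that also rose with CpG was 85.3%, 79.7% to 91.2% with 1 array left out, and 63.9% with the block in the compared groups only. The share of fallen genes that also fell was 49.5%. It was 31.3% at the same median, 38.9% with no labelling term, 70.5% with the Enzo arrays only, 63.0% with all 15 arrays, 37.3% at 2-fold or more, 62.0% with the block in the compared groups only and 43.8% to 61.7% with 1 array left out. The 13 fallen interferon-stimulated genes became 7 with no labelling term, 5 without the trend, 8 with all 15 arrays and 7 to 16 with 1 array left out. The causes were not tested. Of 57 called named genes, 18 kept their call under each alternative that tested them and 34 whichever array was left out, and 0 changed direction. Among the 18, Il6, Ifnlr1, Rab34, Ifit3, Ifit2 and Mx2 did not pass the stricter filter, on all 12 arrays, and were not tested there. The minimum of 2-fold was not applied to single named genes. The replicate block in the fit of 12 arrays changed no call among named genes but that of Bst2.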

Other observations

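Genes outside the naming rule, chosen after their values were seen, add to both sides of the comparison. Among the fallen genes, Parp12 (-1.67 ± 0.37), Xaf1 (-1.59 ± 0.28), Sp100 (-1.54 ± 0.23), Rnf213 (-1.31 ± 0.27), Helz2 (-1.06 ± 0.18) and Dtx3l (-0.98 ± 0.21) are known as interferon-inducible. The macrophage genes Marco (-1.57 ± 0.32), a scavenger receptor, Ccl8 (-1.60 ± 0.35) and Acod1 (-1.24 ± 0.21), which makes itaconate, were also lower with PL2-3, as were the corepressor gene Tle4 (-1.25 ± 0.21), the SMAD transcription factor gene Smad3 (-1.21 ± 0.16) and the pseudokinase gene Trib2 (-1.59 ± 0.28). Values are log2 changes ± SE (limma, n = 3 each) in PL2-3 against anti-IgM. The largest parts of the lower myeloid marker sums were S100a8, at 13900 to 28500 with PL2-3 and 20800 to 36100 with anti-IgM, and S100a9. Csf1r, of the same list, had 7920 to 16300 with PL2-3 and 6010 to 16200 with anti-IgM. Lyz2 had 3380 to 6560 with PL2-3 and 5150 to 8160 with anti-IgM, and no myeloid marker was called. The part of the myeloid sums in the macrophage genes was not tested.

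Most risen genes also rose with CpG, and 9 of 68 were not called and 1, Hdac7, fell. Cst7, which encodes cystatin F, an inhibitor of lysosomal proteases, changed by 1.58 in PL2-3 against anti-IgM and by 0.19 in CpG against media. Adam19, a membrane protease gene, changed by 1.39 and 0.36 and Rnf144a, a ubiquitin ligase gene, by 1.35 and -0.55. Ifitm2, an interferon-induced transmembrane protein gene that thus rose, changed by 1.12 and -0.28, and Hdac7, a histone deacetylase gene, by 0.94 and -0.67. These log2 values come from the same fit, and the difference between the comparisons was not tested.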
